A study of Homo sapiens with 8 samples.

Results

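The EGR and FOS/JUN immediate early genes were followed through FEZF1 knockdown in A673 cells, an Ewing sarcoma cell line that carries the EWSR1-FLI1 fusion. The members are 10 genes given by name, EGR1, EGR2, EGR3, EGR4, FOS, FOSB, FOSL1, FOSL2, JUN and JUNB, of 34792 gene symbols with matched transcripts. They were chosen from the doxycycline comparison of these same libraries, in which EGR3 stood apart from EGR1, EGR2 and the FOS/JUN genes. Their doxycycline values are therefore a description and carry no p-value. All cultures were A673/TR/shFEZF1, which hold an shRNA against FEZF1 that doxycycline switches on, and all grew in DMEM with 10% FBS and with blasticidin, puromycin and zeocin. The 4 control cultures were untreated, and 4 others received doxycycline at 1 µg/mL for 72 h. Each group held 1 culture of the polyclonal population and 1 each of clones 3, 5 and 6, so each clone rests on a single selected line. No culture with an unrelated shRNA was analysed here, so an effect of doxycycline itself cannot be told apart from an effect of the shRNA. Nothing in the labels says that the 4 cultures of a group are independent repeats of 1 line. In the models with origin and treatment, p-values are judged against the variation left between cultures after both are taken out.

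Immediate early genes are transcribed within minutes of a growth factor, stress or calcium signal, from transcription factors that already sit in the cell. ERK signalling to serum response factor and its ternary complex partners acts through the CArG box, and CREB and ATF proteins act through cAMP response elements. The EGR proteins are zinc finger transcription factors that bind a shared GC-rich site, while FOS and JUN proteins pair into AP-1. EGR2 is known from Schwann cell myelination and hindbrain patterning, and EGR3 from muscle spindle development.

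The sequences upstream of the start sites of EGR1 and EGR2 are shown because these genes had opposite directions with doxycycline and both hold CArG boxes. Each run is the 250 bases before the start, taken from RefSeq on GRCh38.p14 and written 5′ to 3′ on the gene's strand. The capitals mark a CArG box or the core TGACG of a cAMP response element, read on either strand, so that CGTCA is the core on the other strand.
EGR1, chr5:138465229-138465478, plus strand: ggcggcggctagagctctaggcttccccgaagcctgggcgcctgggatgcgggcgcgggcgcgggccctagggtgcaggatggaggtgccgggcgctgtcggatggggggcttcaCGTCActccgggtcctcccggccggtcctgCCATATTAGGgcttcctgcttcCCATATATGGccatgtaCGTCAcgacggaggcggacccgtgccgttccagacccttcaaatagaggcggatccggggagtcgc
EGR2, chr10:62816367-62816616, minus strand: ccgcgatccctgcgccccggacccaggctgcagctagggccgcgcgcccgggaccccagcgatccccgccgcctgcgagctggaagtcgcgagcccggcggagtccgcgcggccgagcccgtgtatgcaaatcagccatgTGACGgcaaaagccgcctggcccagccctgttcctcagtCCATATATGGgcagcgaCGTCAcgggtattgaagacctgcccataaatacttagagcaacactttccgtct
The EGR1 window held 2 CArG boxes, from 105 to 96 and from 83 to 74 bases before the start. The EGR2 window held 1 box, from 71 to 62 bases before the start. A CArG box was found on either strand in 1.16% of 35116 promoters of this length and in 2 of 10 member promoters. These belong to 2 of the 8 member genes with a promoter in the table (EGR1, EGR2, EGR4, FOS, FOSB, FOSL2, JUN and JUNB). Bases further upstream were not searched, so a box there would be missed for FOS or any other member. For EGR2, 3 start sites were listed, and the box stood at 1 of them.

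The FOS/JUN windows below are shown for the sequence around TGACG, which these genes share with EGR1 and EGR2. The capitals mark TGACG.
FOS, chr14:75278749-75278783, plus strand: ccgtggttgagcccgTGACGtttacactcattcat
FOSB, chr19:45467921-45467955, plus strand: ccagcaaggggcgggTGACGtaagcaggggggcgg
JUN, chr1:58784151-58784185, minus strand: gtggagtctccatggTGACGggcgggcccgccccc
JUNB, chr19:12791334-12791368, plus strand: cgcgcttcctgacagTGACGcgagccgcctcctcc
TGACG was present in a promoter of each of the 8 member genes and in 21.2% of all 35116. The palindrome TGACGTCA, which contains TGACG, was found in 0 member promoters and 1.65% of all. The 7-letter AP-1 form TGANTCA was in 0 member promoters and 6.57% of all. Other forms of the AP-1 site were not searched, so these promoters, that of JUN among them, may hold one. The pattern GCGNGGGCG, a loose form of the EGR site with any base at N, was in 8.41% of all promoters. Among the members it was in that of EGR1 alone, as GCGCGGGCG. The tandem GGAAGGAA, of the kind EWSR1-FLI1 binds in microsatellites, was in 0 member promoters and 3.06% of all. A match is a description of the letters in this window and says nothing of whether a factor binds there.

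The libraries held 26719886 to 42422421 assigned reads, 28170989 to 42422421 in the controls and 26719886 to 38104082 with doxycycline. Values are given in CPM, the read count of a gene scaled by its TMM-adjusted library size, unless TPM, which also divides by transcript length, is named. FEZF1, the target of the shRNA, was at 96.4, 70.5, 107 and 74.4 CPM in the control polyclonal population and clones 3, 5 and 6, and at 60.6, 43.0, 60.8 and 36.4 CPM with doxycycline. Each doxycycline culture was below every control culture, which matches the labels. Of the Ewing sarcoma markers, CD99 was at 801 to 2367 CPM and GLI1 at 6.57 to 19.8 CPM, and the summed level of the 10 markers was 7020 to 8420 CPM in controls and 7115 to 8515 CPM with doxycycline. The 10 markers of blood, epithelium, endothelium, liver and muscle summed to 0.725 to 2.83 CPM in controls and 1.66 to 4.41 CPM with doxycycline. Of these, CD3E was at 0 in every library, and EPCAM had the highest value, 2.92 CPM. CDH5 gave no reading, since the matched transcripts held 0% of the mean that the authors list for it.

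In untreated A673 cells EGR1 was the most abundant member per length of transcript, with 63.1 ± 15.1 TPM (SD, n = 4), followed by JUN at 27.1 ± 5.46 and JUNB at 25.4 ± 6.61 TPM. EGR1 is the best known of the EGR factors and is induced by nearly every growth signal. EGR2 was at 10.4 ± 1.86, FOSL1 at 8.53 ± 7.84 and FOS at 5.86 ± 0.694 TPM. FOSL2 was at 3.07 ± 2.54, EGR3 at 2.89 ± 0.761, EGR4 at 1.5 ± 0.57 and FOSB at 1.35 ± 0.839 TPM. In this order only EGR1 over JUN and JUNB over EGR2 were separated with no overlap of the 4 control cultures, and the other neighbours overlapped.

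EGR3 was lower with doxycycline in 4 of 4 origins, EGR1 was also lower in 4 of 4, and EGR2 was higher in 4 of 4. In the edgeR model with origin as a block, 3 of the 10 members passed the threshold over 15993 genes, beside 7.63% of all genes. EGR2 was the member called higher, where 3.73% of all genes were called higher, and EGR1 and EGR3 were the members called lower, where 3.91% of all genes were. Since this comparison chose the members, the counts are given as a description. Libraries of both groups did not overlap for 2 members, EGR2 and EGR3, and for 4.94% of all genes. Of the members, 6 moved in 1 direction in all 4 origins (EGR1, EGR2, EGR3, EGR4, FOS and JUNB), beside 33.3% of all genes. The median fitted log2 fold change was 0.04 over the members and 0.004 over all genes, and the median size without sign was 0.30 over the members and 0.15 over all genes. Without the replicate block, 0 members and 1 gene in all passed.

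**Figure D1:**
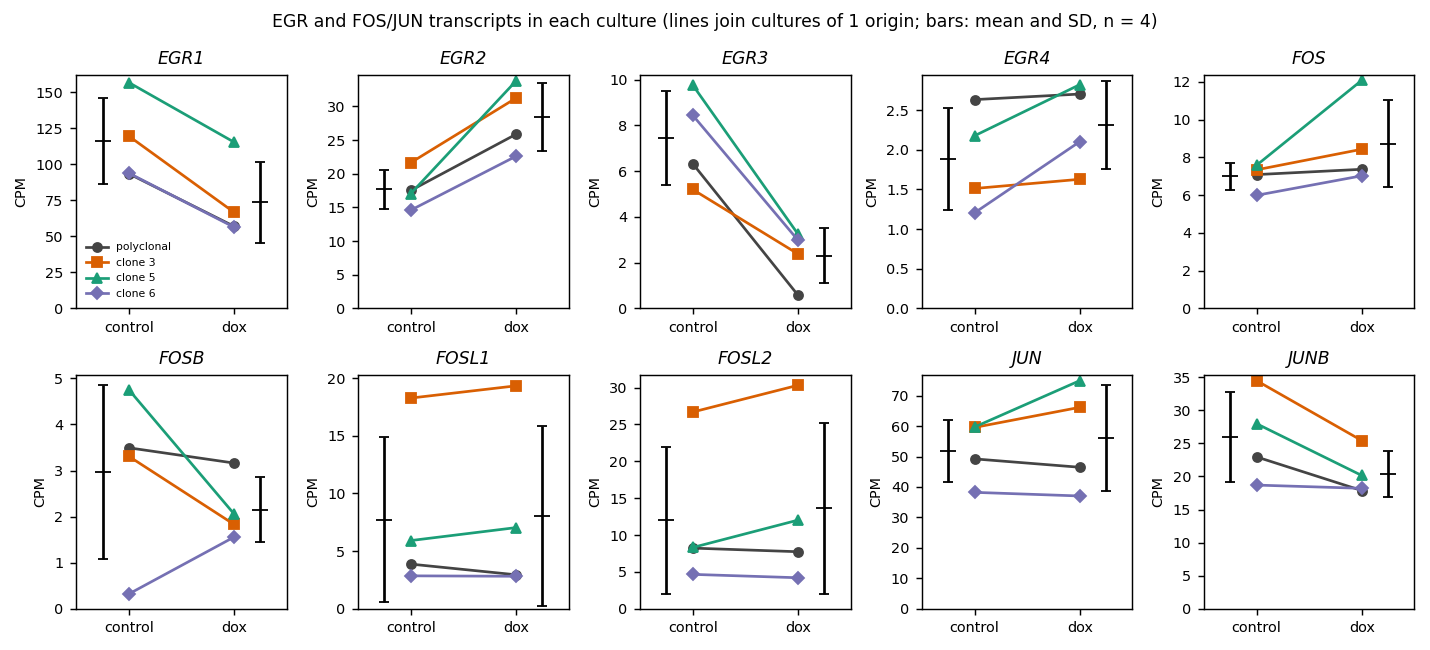
Level of each EGR and FOS/JUN gene in CPM (vertical axes, linear from 0) in the control and doxycycline culture of each origin, with a line joining cultures of 1 origin and bars for the mean and SD (n = 4 per group). EGR3 is at 5.20 to 9.76 CPM in controls and 0.583 to 3.25 with doxycycline, EGR2 lies higher with doxycycline in each origin, and FOSL1 and FOSL2 stand highest in both clone 3 cultures.

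EGR3 encodes the EGR protein that is often induced beside EGR1 in neurons and muscle. The gene lies on chromosome 8 of GRCh38.p14, from 22687659 to 22693480. In control cultures it was at 6.33, 5.20, 9.76 and 8.44 CPM in the polyclonal population and clones 3, 5 and 6. With doxycycline it was at 0.583, 2.38, 3.25 and 2.99 CPM in the same order. The lowest control lay above the highest doxycycline culture, and the polyclonal population had the lowest level of all. Mean EGR3 was 7.43 ± 2.05 CPM in controls and 2.3 ± 1.2 CPM with doxycycline (SD, n = 4 each), and the fitted log2 fold change was -1.82, a 3.54-fold lower level. Within origins the log2(CPM + 0.5) difference was -2.66 in the polyclonal population, -0.98 in clone 3, -1.45 in clone 5 and -1.36 in clone 6. These values rest on few reads, 165 to 269 per control library and 19 to 98 per doxycycline library, so the counting error is larger than for EGR1. Without the polyclonal population the fitted value was -1.41, and without clone 5 or clone 6 EGR3 no longer passed the threshold.

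The reads of EGR3 fell mostly on 1 curated transcript, NM_004430.3, which took 71.4% of them. It held an estimated 125, 165, 200 and 134 reads in the control polyclonal population and clones 3, 5 and 6, and 18.8, 81.6, 79.5 and 27.0 with doxycycline. A further transcript, NM_001199880.2, took 24.7% of the gene's reads and was listed at 105, 0, 70.0 and 76.0 reads in controls and at 0, 0, 0 and 37.2 with doxycycline. The main transcript was thus lower in each origin, and the second was listed at 0 in 4 libraries, clone 3 at both states among them. How reads divide between transcripts of 1 gene is an estimate of the quantification. The matched EGR3 transcripts held 88.8% of the mean that the authors list for the gene, so part of its reads was on transcripts not matched here.

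EGR1 lies on chromosome 5 from 138465479 to 138469303. It was at 93.6, 120, 157 and 94.0 CPM in the control polyclonal population and clones 3, 5 and 6, and at 57.0, 66.8, 116 and 56.4 CPM with doxycycline. Every origin was lower with doxycycline, but clone 5 stood so high that its doxycycline culture exceeded the control cultures of the polyclonal population and clone 6. Mean EGR1 was 116 ± 29.9 CPM in controls and 73.9 ± 28.1 CPM with doxycycline (SD, n = 4 each). The within-origin log2(CPM + 0.5) difference was -0.71, -0.84, -0.44 and -0.73, and the fitted log2 fold change was -0.68, a 1.60-fold lower level. EGR1 has 1 transcript in these files and 1342 to 4325 reads per library.

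EGR2 lies on chromosome 10 from 62811996 to 62819167. It was at 17.5, 21.6, 17.1 and 14.6 CPM in the control polyclonal population and clones 3, 5 and 6, and at 25.9, 31.2, 33.8 and 22.6 CPM with doxycycline. The highest control lay below the lowest doxycycline culture. Mean EGR2 was 17.7 ± 2.92 CPM in controls and 28.4 ± 5.06 CPM with doxycycline (SD, n = 4 each). The within-origin difference in log2(CPM + 0.5) was 0.55, 0.52, 0.96 and 0.61, and the fitted log2 fold change was 0.68, a 1.60-fold higher level. The direction was opposite to that of EGR1 and EGR3 in every origin. The transcript NM_000399.5 took 73.1% of the EGR2 reads and was at an estimated 474, 525, 344 and 284 reads in controls and 616, 791, 750 and 371 with doxycycline, and NM_001136178.1 took 20.5%.

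EGR4, an EGR factor known from neurons and germ cells, was at 2.63, 1.51, 2.18 and 1.21 CPM in the control polyclonal population and clones 3, 5 and 6, and at 2.70, 1.63, 2.82 and 2.10 CPM with doxycycline. The groups overlapped, with 30 to 104 reads per library, and EGR4 was not called (fitted log2 fold change 0.31). The 4 EGR genes together summed to 61.7 to 98.6 TPM in controls and 43.5 to 85.3 TPM with doxycycline. EGR1 supplied 77.4% to 84.7% of this sum in controls and 64.1% to 73.1% with doxycycline. The share of EGR2 was 9.84% to 15.6% in controls and 22.9% to 32.1% with doxycycline, that of EGR3 was 2.39% to 5.21% and 0.444% to 2.60%, and that of EGR4 was 1.47% to 3.15% and 2.26% to 4.39%. The ranges of EGR1 and EGR2 did not overlap between the groups, and those of EGR3 and EGR4 did.

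**Figure D2:**
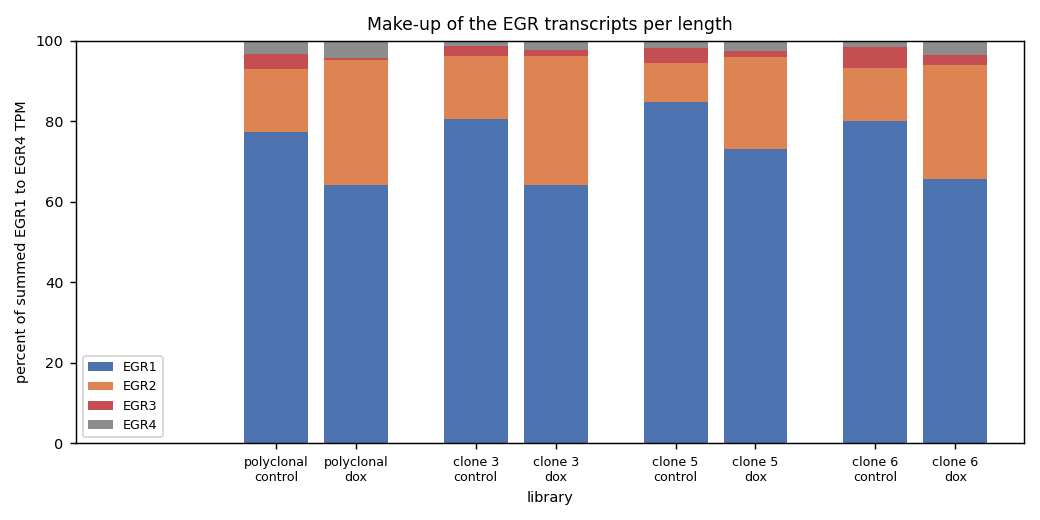
Share of the summed EGR1 to EGR4 TPM (vertical axis, percent, from 0 to 100) that each gene supplied in each of the 8 libraries, control and doxycycline side by side by origin. The EGR2 share is 9.84% to 15.6% in controls and 22.9% to 32.1% with doxycycline, and EGR1 gives the largest share in every library.

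EGR3 was set against the other members within each origin as a difference of log2(CPM + 0.5) changes. Against EGR1 it was lower by a mean log2 value of -0.93 ± 0.76 (SD, n = 4), with -1.95 in the polyclonal population, -0.15 in clone 3, -1.01 in clone 5 and -0.63 in clone 6. Clone 3 thus showed EGR1 and EGR3 lower to a similar extent. Without the polyclonal population the mean was -0.59, and with a pseudocount of 2 CPM it was -0.49. Against EGR2 the values were -3.20, -1.50, -2.42 and -1.97, with a mean of -2.27 ± 0.72. Against the mean of the 6 FOS/JUN members the values were -2.50, -0.89, -1.48 and -1.58, with a mean of -1.61 ± 0.66. With the pseudocount of 0.5 CPM, the change of EGR3 was the more negative one in each origin and each of these comparisons. The smallest gap was the -0.15 against EGR1 in clone 3. With a pseudocount of 2 CPM, EGR1 had the more negative change in that clone. Otherwise only the means were compared at other pseudocounts.

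**Figure D3:**
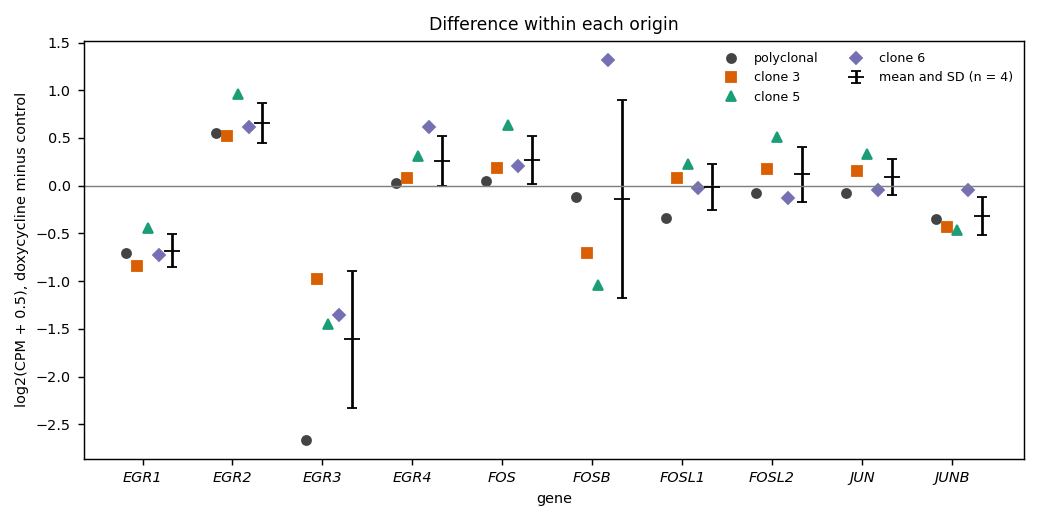
Difference between the doxycycline and the control culture of each origin in log2(CPM + 0.5) (vertical axis) for each gene, with 1 symbol per origin and the mean and SD (n = 4) in black. EGR3 lies between -2.66 and -0.98, EGR1 between -0.84 and -0.44 and EGR2 between 0.52 and 0.96, while FOSB ranges from -1.04 to 1.32.

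In the edgeR model with the block 0 of the 6 FOS/JUN members were called with doxycycline. JUN, the partner that FOS proteins need to bind DNA as AP-1, was at 49.2, 59.6, 59.7 and 38.2 CPM in the control polyclonal population and clones 3, 5 and 6. With doxycycline it was at 46.5, 66.2, 75.0 and 37.1 CPM, higher in 2 of the 4 origins (fitted log2 fold change 0.09). JUNB, a JUN protein with weaker activating capacity, was at 23.0, 34.5, 28.0 and 18.7 CPM in controls and 17.9, 25.4, 20.2 and 18.2 CPM with doxycycline. It was lower in 4 of 4 origins, by no more than 0.04 on the log2 scale in clone 6, and its fitted value was -0.33. JUNB was not called in edgeR. Of the 10 alternative fits it was called in 1, DESeq2 with the same block, and this is a description.

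FOS, the classic partner of JUN, was at 7.09, 7.34, 7.58 and 5.99 CPM in control cultures and 7.37, 8.43, 12.1 and 7.02 CPM with doxycycline. It was higher in each origin, with the widest gap in clone 5, and the groups overlapped (fitted log2 fold change 0.29). FOSB, another FOS protein with a transactivation domain, was at 3.49, 3.31, 4.75 and 0.322 CPM in controls and 3.16, 1.83, 2.06 and 1.56 CPM with doxycycline. It was lower in the polyclonal population and clones 3 and 5 and higher in clone 6, whose control library held 8 FOSB reads. The fitted value of FOSB was -0.22, and it was 0.01 without clone 3, 0.15 without clone 5 and -0.73 without clone 6, so its sign depended on the origins used. The matched FOSB transcripts held 62.9% of the authors' mean for the gene. FOSL1 and FOSL2, which lack the transactivation domain of FOS, had fitted log2 fold changes of -0.01 and 0.13, each higher in 2 of 4 origins. The summed FOS/JUN level was 45.9 to 99.2 TPM in controls and 44.4 to 100 TPM with doxycycline.

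FOSL1 and FOSL2 were several-fold higher in clone 3 than in the other origins, at both treatments. The comparison between the polyclonal population and the clones did not choose the members, and it was tested with the edgeR F-test over the 4 origins with treatment in the model. In it 5 of the 10 members passed, EGR1, FOSL1, FOSL2, JUN and JUNB, beside 39.4% of all genes. A share of this size over 10 genes is near that of all genes. Each origin has 1 control and 1 doxycycline culture, so culture-to-culture variation within an origin is measured only across treatments.

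FOSL1 was at 3.87 CPM in the control polyclonal population, 18.3 in clone 3, 5.91 in clone 5 and 2.86 in clone 6, and at 2.95, 19.3, 7.04 and 2.82 CPM with doxycycline. Both clone 3 cultures were above every other library. Over both treatments the origin means were 3.41, 18.8, 6.48 and 2.84 CPM, a 6.63-fold range (edgeR F-test, adjusted p = 0.00035). FOSL2 was at 8.23, 26.7, 8.31 and 4.66 CPM in controls and 7.74, 30.3, 12.0 and 4.21 CPM with doxycycline, again with both clone 3 cultures above all others. Its origin means of 7.98, 28.5, 10.2 and 4.43 CPM gave a 6.43-fold range (edgeR F-test, adjusted p = 0.00039). Without clone 3, both genes still passed among the other 3 origins, with adjusted p = 0.023 for FOSL1 and 0.0239 for FOSL2 (edgeR).

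EGR1 was highest in clone 5, with origin means of 75.3, 93.3, 136 and 75.2 CPM in the polyclonal population and clones 3, 5 and 6 (edgeR F-test, adjusted p = 0.00196). JUN was highest in clones 5 and 3, with 47.9, 62.9, 67.3 and 37.6 CPM (adjusted p = 0.005), and JUNB was highest in clone 3, with 20.4, 30.0, 24.1 and 18.5 CPM (adjusted p = 0.0178). The ranges of these 3 genes were 1.81-, 1.79- and 1.62-fold, smaller than those of FOSL1 and FOSL2. The call of EGR1 was lost without clone 5 (adjusted p = 0.0623), that of JUN without clone 6 (0.0502) and that of JUNB without clone 3 (0.145). EGR2 (adjusted p = 0.0579), EGR4 (0.102), FOS (0.142), EGR3 (0.171) and FOSB (0.179) did not pass, and EGR2 passed without clone 5 (0.0391). Clone 6 had the lowest mean for EGR2, FOS, FOSB, FOSL1, FOSL2, JUN and JUNB, and for EGR1 it was level with the polyclonal population.

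**Figure D4:**
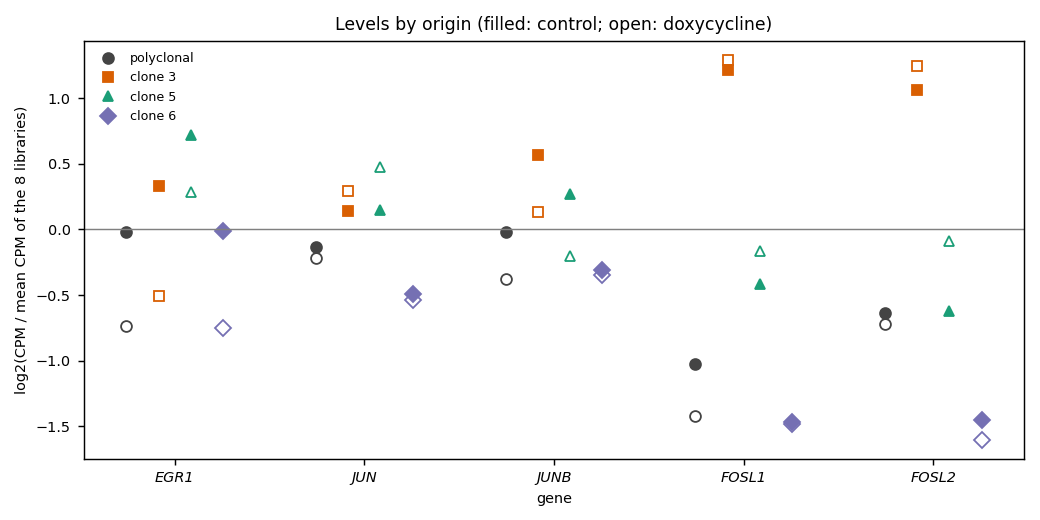
Level of EGR1, JUN, JUNB, FOSL1 and FOSL2 in each library as log2 of its CPM over the mean CPM of the gene in the 8 libraries (vertical axis), by origin, with filled symbols for control and open symbols for doxycycline. Both clone 3 cultures lie above all others for FOSL1 and FOSL2, and the origin means of these genes span 6.63-fold and 6.43-fold.

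Other immediate early genes moved in both directions with doxycycline. Of 28 tested, 13 were called, 9 higher and 4 lower, which is 46.4% beside 7.63% of all genes. The median log2 fold change of the list was 0.264 beside 0.004 for all genes. Between origins 16 of the 28 were called, 57.1% beside 39.4% of all genes. This list and those that follow were chosen with earlier results of these data known, so their counts and p-values are descriptions. ARC, a neuronal gene for synaptic strength, was at 24.2, 43.5, 45.8 and 23.6 CPM in the control polyclonal population and clones 3, 5 and 6 and at 14.8, 19.0, 21.1 and 10.4 CPM with doxycycline. It fell by 1.05 on the log2 scale (edgeR, adjusted p = 0.00594), and every doxycycline culture was below every control culture. IER2, a nuclear protein of early growth responses, fell from 135 ± 11.2 to 93.0 ± 5.84 CPM (SD, n = 4 each; edgeR, adjusted p = 0.00594). RHOB, a small GTPase of endosomes, rose from 40.9 ± 5.68 to 59.3 ± 10.6 CPM (edgeR, adjusted p = 0.00914). BTG2, an antiproliferative gene induced by p53, rose from 17.0 ± 0.751 to 27.0 ± 3.75 CPM, and CCN1, a matricellular protein and YAP target, from 25.4 ± 13.3 to 36.4 ± 20.9 CPM (edgeR, adjusted p = 0.0136 for each). Each of these 5 genes moved the same way in 4 of 4 origins, and each passed in 7 to 9 of the 10 alternative fits. Without the block 0 of the 28 genes passed in edgeR, with 11 at an unadjusted p under 0.05, and DESeq2 with the block called 15.

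**Figure D5:**
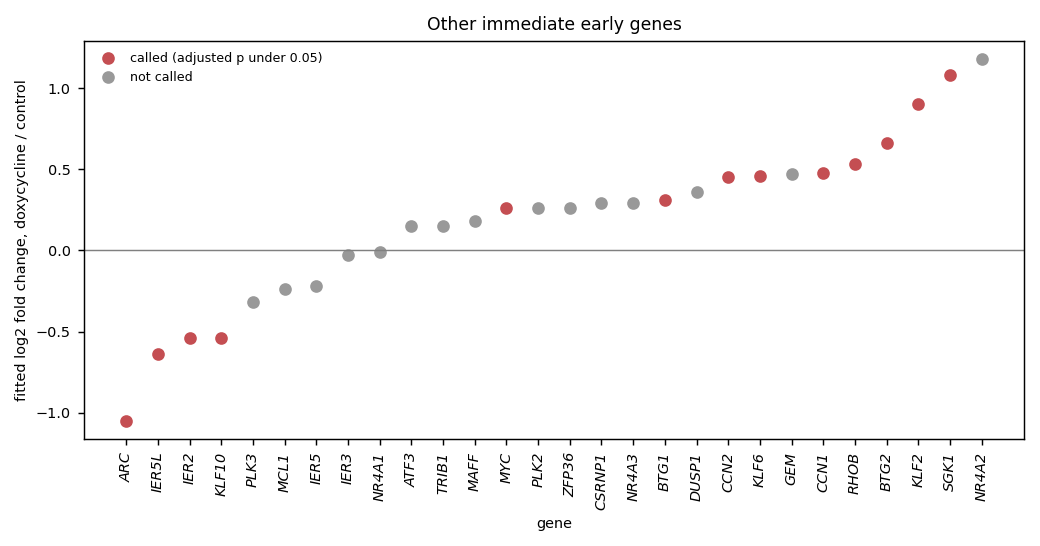
Fitted log2 fold change, doxycycline over control (vertical axis), of the 28 other immediate early genes tested, ordered by value, with called genes in red. Of the 13 called genes, 9 lie above 0 and 4 below, from -1.05 for ARC to 1.08 for SGK1.

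Other AP-1 and related bZIP genes gave 2 called of 18 tested (11.1%, median log2 fold change 0.064). Both were higher with doxycycline, and MAFK, a small MAF partner of NRF2, rose from 11.8 ± 3.49 to 16.2 ± 5.65 CPM (edgeR, adjusted p = 0.043). Regulators and cofactors of the members gave 3 called of 25 (12.0%, median -0.017). ZFP36L1, which promotes the decay of AU-rich mRNAs, rose from 93.2 ± 10.2 to 134 ± 19.3 CPM (edgeR, adjusted p = 0.00745). MRTFB, a coactivator of serum response factor, fell by 0.33 on the log2 scale (edgeR, adjusted p = 0.0459). Of the 10 alternative fits, MAFK passed in 4, ZFP36L1 in 9 and MRTFB in 3. The other 22 regulators did not pass, and of the 25 tested, 5 had under 80% of the authors' mean matched, the lowest 9.8%, so that these were read on part of their reads. The same held for 3 of the 18 bZIP genes and 2 of the 28 other immediate early genes.

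Of 25 genes known to respond to AP-1 or EGR proteins, 18 were tested, and 3 of these were called, all higher (16.7%, median log2 fold change 0.035). VIM gave no reading, since the matched transcripts held 0% of the authors' mean for it. NGFR, the p75 neurotrophin receptor, rose from 63.5 ± 13.4 to 152 ± 49.7 CPM (edgeR, adjusted p = 0.00861). HMGA1, an architectural chromatin protein, rose from 195 ± 59.8 to 248 ± 56.9 CPM (adjusted p = 0.0289), and MMP1, a collagenase, was at 313.7, 1080, 168.3 and 315.8 CPM in controls and 374.6, 1244, 346.1 and 541.9 CPM with doxycycline (adjusted p = 0.047). Of the 10 alternative fits, NGFR passed in 9, HMGA1 in 5 and MMP1 in 3, and MMP1 was lost without each origin in turn. The other 15 genes tested from this list did not pass.

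Heat shock genes, which respond to culture stress, were read beside the members. Of 10, 3 were called, all higher, HSPA1A from 224 ± 71.6 to 326 ± 147 CPM, HSPA1B from 156 ± 49.8 to 221 ± 89.7 CPM and BAG3 from 135 ± 35.5 to 163 ± 46.3 CPM (edgeR, adjusted p = 0.0189, 0.0118 and 0.0392). Of the 10 alternative fits, HSPA1B passed in 8, HSPA1A in 7 and BAG3 in 5. HSPA1A and HSPA1B are near-identical copies whose reads may be divided wrongly between them. The summed level of the 10 genes was 6662 to 8107 CPM in controls and 6639 to 8876 CPM with doxycycline, and its part in the results for the members was not tested. Of the 10 Ewing sarcoma markers, 4 were called, NR0B1 and NKX2-2 higher and LIPI and GLI1 lower, which passed in 9, 4, 5 and 5 of the 10 alternative fits. Of the markers of other cell types EPCAM and PECAM1 reached the test and 0 passed in edgeR, with both at an unadjusted p under 0.05 and higher with doxycycline, at means of 1.22 against 0.499 CPM and 0.680 against 0.361 CPM. The matched PECAM1 transcripts held 73.4% of the authors' mean, so PECAM1 was read on part of its reads. The part of these markers in the results for the members was not tested.

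The genes whose levels followed EGR3 most closely over the 8 libraries, by Pearson's r of log2 CPM among 10778 genes with a mean of at least 5 CPM, were FAM111B (r = 0.986), YAE1 (0.952), C21orf91 (0.933), HMGA2 (0.915) and ZIK1 (0.911). Their Spearman's rho was 0.952, 0.976, 0.881, 0.881 and 0.905. For EGR1 they were SGF29 (r = 0.987), CIZ1 (0.946), PROSER2-AS1 (0.945), CTCF (0.931) and TAF15 (0.920), with rho of 0.952, 0.905, 0.976, 0.881 and 0.881. The 8 points share the treatment split and the origins, and the highest of so many correlations are large by choice, so these are descriptions. EGR3 itself, with a fitted fold of 3.54, differed more between groups than FAM111B, at 55.4 and 38.4 CPM in controls and with doxycycline.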

How the data were processed

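RNA of 8 A673/TR/shFEZF1 cultures was prepared as TruSeq stranded libraries, sequenced in paired ends and quantified by the authors with Salmon on GRCh38 RefSeq transcripts, without a strand setting given in the sources used here. They deposited for each library the estimated count and TPM of each transcript, and a DESeq2 table whose mean column is a signal of normalized counts. The columns of that table that hold the authors' own fold changes and p-values were not used. The control file of clone 5 differs from the other 7 in row order and number format, and the cause is not stated.

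Transcripts were matched to RefSeq gene symbols (115325 of 158867, 72.6%), and their counts were summed to 34792 genes and rounded. Genes passing filterByExpr (15993) were normalized by TMM and fitted with edgeR 4.0.16 in R 4.3.3 (quasi-likelihood test, origin and treatment in the model, Benjamini-Hochberg adjustment, threshold 0.05). Between origins, the F-test of the origin terms was used. Alternatives were DESeq2 1.42.0, DESeq2's size factors, no filter, curated transcripts only, an effective length offset, each origin left out, and no replicate block (1 gene called). Cultures of 1 origin share cells, and their deviations from the group means correlated at 0.406 to 0.59, against -0.395 to 0.179 for cultures of different origin. Taking deviations from group means lowers the values between origins where those within an origin are high, so part of this gap is built in. Per-origin differences used log2(CPM + 0.5). The scripts were tested on simulated data. Python 3.11.15, pandas 2.3.3, numpy 2.4.6 and scipy 1.17.1 were used.

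The members and lists were chosen with earlier results of these data known. Named are the members and FEZF1, up to 5 called genes per list by smallest adjusted p, the 5 genes most correlated with EGR3 and with EGR1, and markers at the extremes of level; SGK1 was named after its value was seen. Some genes that this rule takes are not reported here. Reads of a transcript on the strand opposite a member cannot be told apart from its own where strand was not used.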

Additional observations from a re-analysis of the deposited data

Results flagged for a closer look

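FOSL2 in the control culture of clone 3 was far from the other control cultures, at 26.7 CPM against 4.66 to 8.31 CPM. The doxycycline culture of clone 3 was also the highest of its group, at 30.3 CPM. Dixon's 95% critical value was applied to 22 groups of 4 libraries, of which 1 was past it, and chance gives about 1.1.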

How the results depend on the processing

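With doxycycline, 1221 genes were called, 1 without the replicate block, 493 with curated transcripts only, 1881 with DESeq2 with the block, and 175 to 699 when each origin was left out, the lowest without clone 5. The members called were 3, 0 without the block and 2 to 3 when each origin was left out; EGR3 was lost without clone 5 or clone 6. Without the block, 0 genes were called in each list, the other immediate early genes, the other bZIP genes, the regulators, the responders and the heat shock genes, with 11, 2, 2, 1 and 0 of them at an unadjusted p under 0.05. Curated transcripts only gave 6, 1, 1 and 1 called genes in the first 4 of these lists, and DESeq2 with the block gave 5 responders. Leaving out each origin gave 3 to 9, 0 to 1, 1 to 1, 1 to 2 and 0 to 2 called genes in the 5 lists. Between origins, 6300 genes were called, 2843 without treatment in the model, 4054 with curated transcripts only, and 2970 to 5300 when each origin was left out. The members called between origins were 5, and 3 without treatment in the model (FOSL1, FOSL2 and JUN), and 4 to 5 when each origin was left out. The mean ratio of EGR3 to EGR1 over the origins stayed negative under every alternative run, from -1.20 to -0.49, but in clone 3 its sign depended on the pseudocount. The mean ratios of EGR3 to EGR2 (-2.53 to -1.78) and to the FOS/JUN members (-1.86 to -1.15) stayed negative as well. Of 210 values of the other named genes under these alternatives, 73 kept their direction but lost the call and 137 kept both, and none reversed. Why the counts moved was not tested. The reads per library limit EGR3, EGR4 and FOSB most.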
